A study of Mus musculus with 12 samples.

Results

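Spi1, the gene of PU.1, was examined with 9 other ETS transcription factor genes, Spib, Ets1, Ets2, Fli1, Erg, Etv6, Elf1, Elk3 and Gabpa, in progenitors of mice that carry the Q202L change in PU.1. The 10 genes were taken by symbol, and all 23 probe sets whose platform annotation gives 1 of these symbols alone were kept, of 45037 probe sets tested in all. The probe set of each gene with the highest mean over the arrays, its lead probe set, stands for the gene, and the other 13 serve as checks. RNA was measured on 12 Affymetrix MG430 v2 arrays, 3 for each of 4 groups of sorted liver cells. KI cells came from mice homozygous for a germline point mutation in exon 5 of Spi1, which replaces 1 glutamine of the ETS domain by leucine, and WT cells came from littermates of the same heterozygous matings. Short-term hematopoietic stem cells (ST-HSC) were sorted as lineage-negative, Sca-1+, c-kit+ and CD150-, and granulocyte-monocyte progenitors (GMP) as lineage-negative, Sca-1-, c-kit+ and high for Fc gamma receptors. The sample records give newborn liver, the C57Bl/6 strain and a CD48+ gate for ST-HSC, whereas the series title gives a CD48- gate, and the study describes a mixed strain background, fetal as well as newborn liver, and KI cells of intermediate CD34 level, called GMP-like, beside the CD34+ gate of the records. The targeting construct carried a selection cassette between loxP sites in the intron before this exon, for removal by Cre, the mutation was kept in a pair of founder lines, and homozygous KI mice die around birth.

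ETS factors share a winged helix-turn-helix domain that reads DNA around a GGAA core, and single family members are told apart mostly by flanking bases, partners and the cells that express them. PU.1 is required for macrophages, neutrophils and B cells, acts in a dose-dependent way, and also binds and activates its own gene. It works together with factors such as C/EBPα, GATA factors, IRF4, IRF8 and c-Jun, and Q202L is described by the study as a change that loses the contact with c-Jun and keeps DNA binding. The arrays therefore answer whether RNA of the mutated factor itself, or of related factors that read similar sites, differed between KI and WT cells.

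Values are log2 signals after RMA, which corrects background and aligns arrays, so that 1 unit is a doubling of signal. A difference was called where limma's Benjamini-Hochberg adjusted p over all 45037 probe sets was under 0.05. The array medians lay between 5.00 and 5.10 in ST-HSC and between 4.70 and 4.79 in GMP, and the median difference of all probe sets, GMP minus ST-HSC, was -0.16 in WT and -0.17 in KI. Differences between populations were therefore described as higher or lower only where the call also held after quantile normalization over all 12 arrays, which brought these medians to 0.04 and 0.02. Nothing in the labels says whether the 3 arrays of a group came from separate animals, and p-values measure the spread between these arrays. Xist, read as a check of sex, was above 8 in 4 WT arrays, replicates 1 and 3 of both populations, and in no KI array. Between KI and WT, a difference tied to sex therefore cannot be fully told apart from one tied to genotype. In the sorted cells the stem cell markers and the GMP markers followed their labels in WT: 7 of 9 stem cell markers were lower and 7 of 7 GMP markers higher in WT GMP than in WT ST-HSC. In KI the same stem cell count was 7 of 9, but 1 of 7 GMP markers was higher in the GMP-like cells. Between the populations 13.1% of all probe sets were called in WT and 12.2% in KI. The KI and WT cells were not fully alike in either set of markers. In ST-HSC 1 of the 9 stem cell markers was higher and 2 were lower in KI, where 2.21% of all probe sets were called. In GMP 1 of the 9 was lower in KI, where 2.13% were called. Of the 7 GMP markers 1 was higher and 1 lower in KI ST-HSC. In GMP 1 of the 7 was lower in KI, with a median difference of -1.1. Slamf1, the gene of CD150, had a mean of 6.53 in KI and 4.61 in WT ST-HSC. Cd34 had a mean of 6.79 in KI GMP-like cells and 9.66 in WT GMP. The means of Kit were 8.69 (KI) and 8.88 (WT) in ST-HSC and 8.49 (KI) and 8.19 (WT) in GMP. The summed linear signal of 9 macrophage markers was 166 to 219 (KI) and 258 to 516 (WT) in ST-HSC and 140 to 177 (KI) and 203 to 301 (WT) in GMP, and 1 of 4 hepatocyte markers was lower in KI in each population.

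Spi1 RNA was present in all 4 groups and was not called between KI and WT. In ST-HSC the 3 KI arrays read 8.08, 8.18 and 8.16, and the 3 WT arrays read 8.03, 7.89 and 7.98. The KI arrays were the higher ones and did not overlap the WT arrays, but the gap was small: the KI minus WT difference was 0.17, a 1.13-fold ratio, with a 95% interval from 0.847- to 1.5-fold (limma adjusted p = 0.798). In GMP the KI arrays read 8.28, 8.95 and 8.71 and the WT arrays 7.95, 8.36 and 8.47. The lowest KI array lay within the WT range, and the difference of 0.39 corresponded to 1.31-fold with a 95% interval from 0.985- to 1.74-fold (limma adjusted p = 0.384). Both intervals leave out a difference of 1 unit in either direction. The probe set was read as total Spi1 RNA, and whether it separates the mutant from the normal transcript was not tested, so it does not check the genotype labels.

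The group means of Spi1 ran in the order WT ST-HSC (7.97 ± 0.0713, SD, n = 3), KI ST-HSC (8.14 ± 0.0516), WT GMP (8.26 ± 0.273) and KI GMP-like cells (8.65 ± 0.341). Neither pair of KI and WT neighbours in this order was called, and the WT GMP arrays spanned the KI ST-HSC arrays. Within WT the GMP minus ST-HSC difference was 0.29 (limma adjusted p = 0.334; 0.48 and 0.141 after quantile normalization). Within KI it was 0.51 (adjusted p = 0.101), and 0.71 after quantile normalization (adjusted p = 0.0445), so that the call was not made on both scales. The difference of the KI minus WT differences between GMP and ST-HSC was 0.22 (95% interval -0.36 to 0.80, adjusted p = 0.897).

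**Figure D1:**
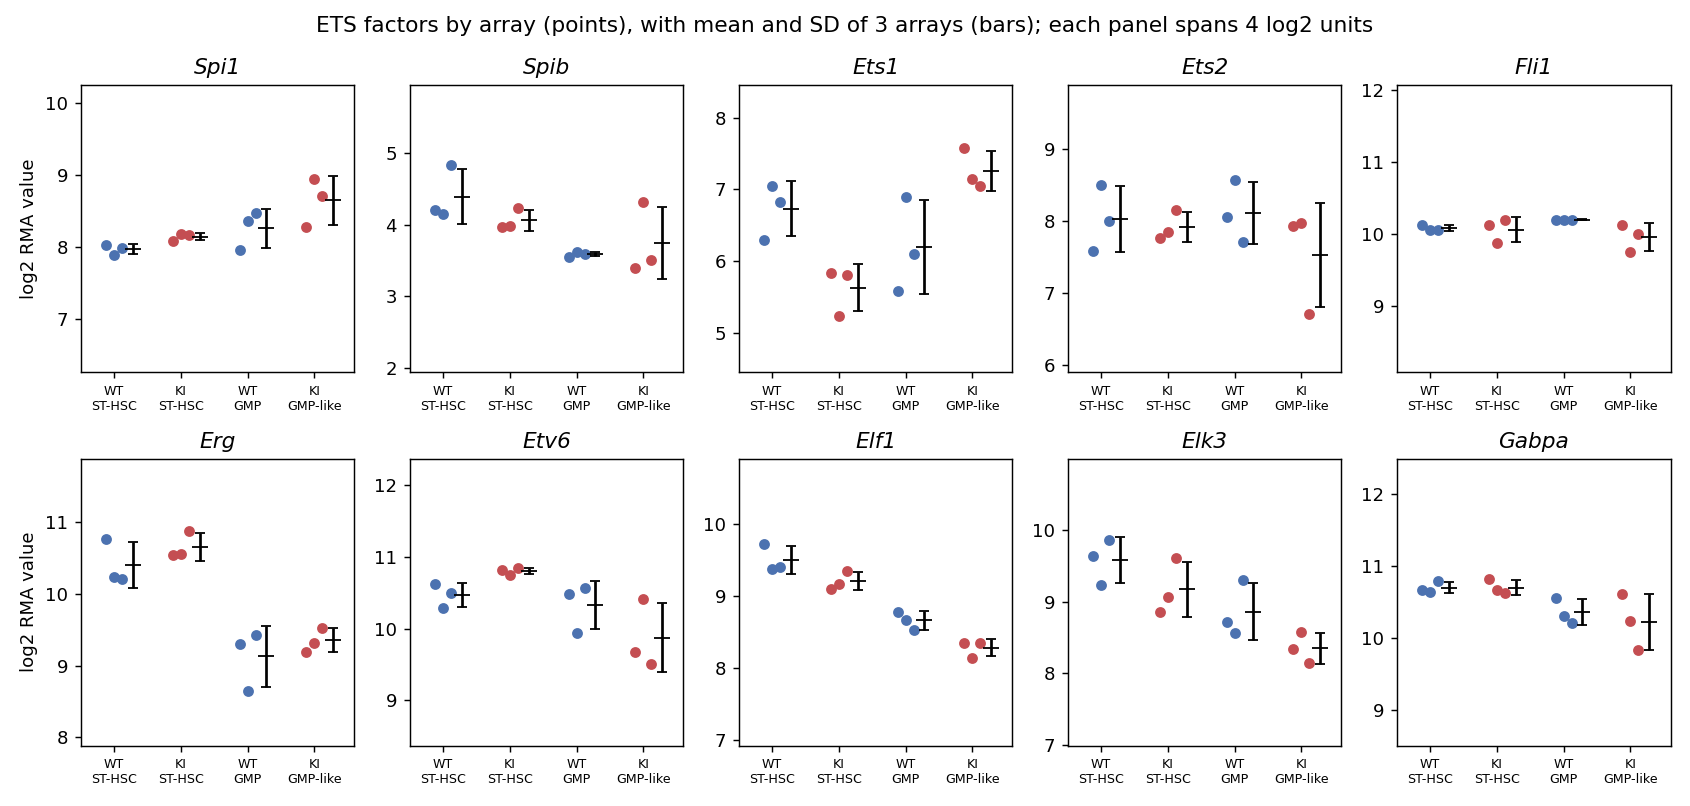
Log2 RMA values of the lead probe set of each of the 10 ETS factor genes, 1 panel per gene, with 1 point per array (blue WT, red KI) and the mean and SD of the 3 arrays of a group beside them. Each panel spans 4 log2 units centred on its own mean, so that slopes but not heights can be compared between panels. Ets1 is the gene whose KI arrays lie below the WT arrays in ST-HSC and above them in GMP, Erg and Elf1 lie lower in GMP of both genotypes, and Spi1 differs by 0.17 and 0.39 between the KI and WT means.

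Over the 12 arrays, the lead probe sets of 8606 genes with a mean of at least 6 were compared with Spi1 as a description of likeness. Hnrnpul1, an RNA-binding protein gene, had the highest Pearson r at 0.908, followed by Rapgef2 (0.90), Rnf26 (0.881), Rhbdf2 (0.875) and E4f1 (0.864). The lowest were Lrrc58 (r = -0.955), Slc15a4 (-0.919), Icam1 (-0.918), Cisd1 (-0.916) and Wdr77 (-0.914). After subtracting the group means r was 0.76 for Hnrnpul1 and -0.882 for Lrrc58, values that the choice of these genes as extremes already favours. All 12 points share an amplification and normalization procedure, and no p is attached. Among the ETS genes themselves, r with Spi1 was -0.811 for Gabpa and -0.805 for Elf1 over the arrays, and -0.674 and -0.377 within groups, while the closest to a like pattern was Ets1 at 0.381, with -0.00302 within groups.

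None of the 10 lead probe sets was called between KI and WT in ST-HSC, where 2.21% of all probe sets were called, and none in GMP, where 2.13% were called. At an unadjusted p under 0.05, limma picked 1 of them in ST-HSC, Ets1, and 2 in GMP, Ets1 and Elf1. The share of all probe sets at that unadjusted threshold is not given here, so these counts have no reference. The study's own kind of test, SAM at a median of 0 false calls, picked 0 of the 10 in either population. The median KI minus WT difference of the 10 genes was -0.06 in ST-HSC and -0.19 in GMP, against -0.02 and -0.03 over the lead probe sets of all 18193 genes. KI and WT arrays did not overlap for 4 of the 10 in ST-HSC (Spi1, Ets1, Etv6 and Elf1; 20.4% of all probe sets) and for 3 of the 10 in GMP (Ets1, Fli1 and Elf1; 17.7% of all probe sets). The 95% interval of the lead probe set lay wholly within 1 unit of 0 for 9 genes in ST-HSC and 7 in GMP, the exceptions being Ets1 in both populations and Ets2 and Elk3 in GMP. This holds for the lead probe sets and not for every probe set of these genes. Checks of Elk3 and Elf1 were exceptions, as was the Erg check 1425370_a_at in GMP (95% interval -0.04 to 1.05). Nor does it hold for RNA at the dim signals of Spib.

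**Figure D2:**
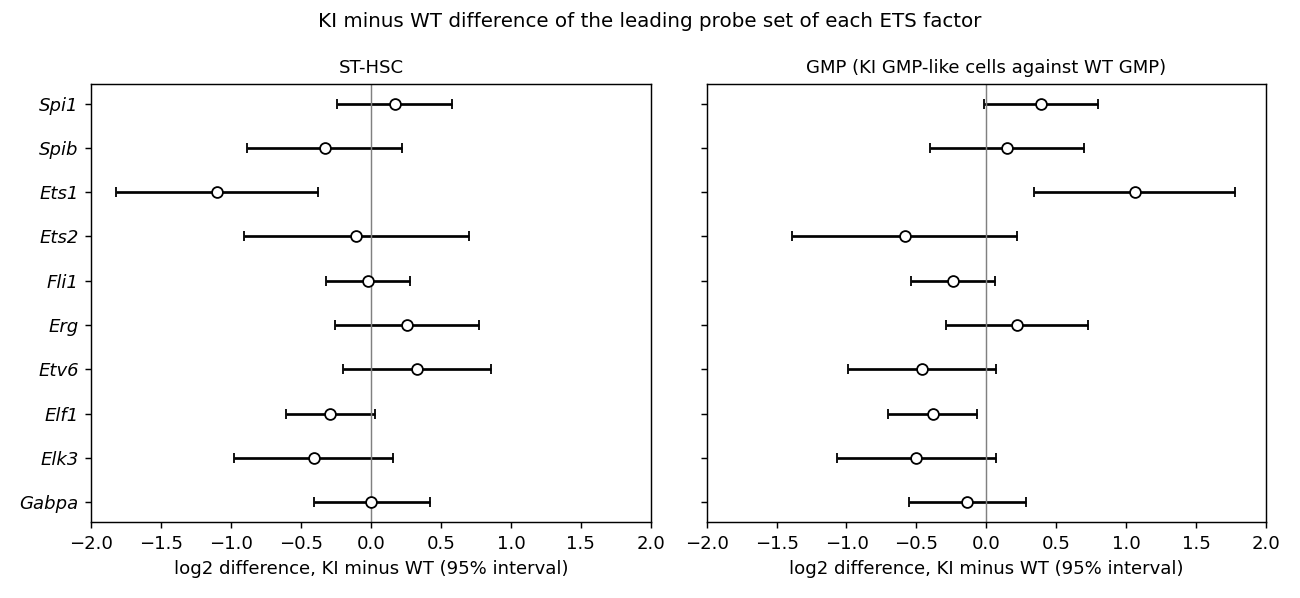
KI minus WT difference in log2 units of the lead probe set of each ETS factor gene in ST-HSC (left) and GMP (right), with the 95% interval from limma; open points have an adjusted p of 0.05 or more. No point is filled, and Ets1 stands at -1.10 on the left and 1.06 on the right.

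Ets1, known for its part in T, NK and B lymphocyte development, had the widest KI to WT differences of the 10 lead probe sets in each population, and their signs were opposite. In ST-HSC the KI arrays read 5.83, 5.24 and 5.80 and the WT arrays 6.30, 7.04 and 6.83. Every KI array lay below every WT array, and the difference was -1.10 (95% interval -1.82 to -0.38, limma adjusted p = 0.141). In GMP the KI arrays read 7.57, 7.15 and 7.04 and the WT arrays 5.59, 6.89 and 6.10. Here every KI array lay above every WT array, the WT arrays spread over more than 1 unit, and the difference was 1.06 (95% interval 0.34 to 1.78, adjusted p = 0.139). Under the alternatives the GMP difference ran from 0.36 to 1.41 with adjusted p from 0.0434 to 0.749: it was 1.41 without WT GMP replicate 2, the highest WT array, and 0.36 when that array was the one WT GMP array kept because the arrays of high Xist were left out. The ST-HSC difference ran from -1.61, with the Xist level as a covariate (adjusted p = 0.0365), to -0.91, without KI ST-HSC replicate 2 (adjusted p = 0.428).

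The test of the difference between populations gave 2.16 for Ets1 (95% interval 1.14 to 3.18, unadjusted p = 0.000738, limma adjusted p = 0.164). This comparison called 0 of the 10 lead probe sets and 0.0488% of all probe sets. At an unadjusted p under 0.05, limma picked 2 of the 10, Ets1 and Etv6. The share of all probe sets at that unadjusted threshold is not given here. The checks 1426725_s_at and 1422028_a_at lay on the same sides of 0 as the lead, with -0.75 and -1.19 in ST-HSC and 0.04 and 0.67 in GMP. Their differences between populations were 0.79 (adjusted p = 0.802) and 1.86 (adjusted p = 0.707). The fourth probe set, 1452163_at, had means of 3.26 in KI ST-HSC, 3.82 in KI GMP-like cells and 3.03 in WT GMP, all under the 95th percentile of 44 olfactory receptor probe sets, genes that blood cells are not known to use, and no size of difference is given for it. The probe sets of Ets1 read the same RNA samples and are not independent replicates.

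Lymphocytes and endothelial cells also express Ets1, and their markers were read beside it. The summed linear signal of 7 measured B lymphoid markers was 210 to 213 in KI ST-HSC against 1070 to 2630 in WT ST-HSC, and 3 of the 7 were lower in KI. In GMP the sums were 211 to 389 in KI and 596 to 922 in WT, with 1 of the 7 lower in KI. Between KI and WT 2.21% of all probe sets were called in ST-HSC and 2.13% in GMP. The sum of 4 measured T and NK markers was 81.2 to 156 (KI) and 37.4 to 54.8 (WT) in GMP, with 1 of the 4 higher in KI, and 77.5 to 102 (KI) and 56.8 to 76.0 (WT) in ST-HSC. In each group 3 of these 4 stayed under the olfactory receptor percentile. The sum of 7 endothelial markers was 809 to 1370 (KI) and 337 to 439 (WT) in GMP, with 1 of the 7 higher in KI, and 694 to 811 (KI) and 402 to 778 (WT) in ST-HSC. The higher gene was Pecam1, which blood cells also express (1.79, adjusted p = 0.0432), while 4 of the 7 lay below 0 in GMP and the median difference was -0.13. Their part in the Ets1 values was not tested, and in sorted bulk samples fewer cells of a type and less RNA per cell cannot be told apart.

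Elk3, a ternary complex factor that with serum response factor acts mostly as a repressor, gave probe sets that disagreed. Its lead probe set 1448797_at read 8.85, 9.06 and 9.60 in KI and 9.64, 9.23 and 9.86 in WT ST-HSC. The groups overlapped, and the difference was -0.41 (95% interval -0.98 to 0.16, limma adjusted p = 0.588). The check 1417662_at read 8.18, 8.25 and 8.71 in KI and 9.15, 9.20 and 9.29 in WT, with no overlap, and was lower in KI by the test (-0.83, adjusted p = 0.033). The check 1445886_at read 6.37, 6.36 and 6.58 in KI and 5.01, 5.15 and 4.89 in WT, again with no overlap, and was higher in KI (1.42, 2.68-fold, adjusted p = 0.0161). The fourth probe set, 1435143_at, had a difference of -0.49 (adjusted p = 0.15).

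In these 2 checks lay the only calls between KI and WT among the 23 probe sets, 1 in each direction, against 1.02% of all probe sets called higher and 1.19% called lower in ST-HSC. The lower call was made under 10 of 21 alternatives and the higher call under 15 of 21. Both were lost when KI ST-HSC replicate 1, KI ST-HSC replicate 2 or WT ST-HSC replicate 3 was left out, with the Xist level as a covariate and without the WT arrays of high Xist. The higher call was also lost without KI ST-HSC replicate 3, and the lower one without WT ST-HSC replicate 1 or 2. SAM picked 1 of the 23 probe sets in ST-HSC and 0 in GMP. In GMP the differences of the 4 Elk3 probe sets were -0.50, -0.65, -0.25 and 0.17, with adjusted p from 0.0547 to 0.855. Because probe sets of 1 gene moved in opposite directions between KI and WT, no direction of that difference is given for Elk3 as a gene. From ST-HSC to GMP all 4 lay below 0 in both genotypes. The lead was not called (-0.72 in WT and -0.82 in KI, limma adjusted p = 0.0934 and 0.065). The check 1417662_at was called lower in WT on both scales (-1.14, adjusted p = 0.00268, and 0.00391 after quantile normalization). So was 1445886_at in KI (-2.01, 0.00127 and 0.00357), where KI GMP replicate 1 read 3.88, under its array's olfactory receptor percentile of 3.91.

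**Figure D3:**
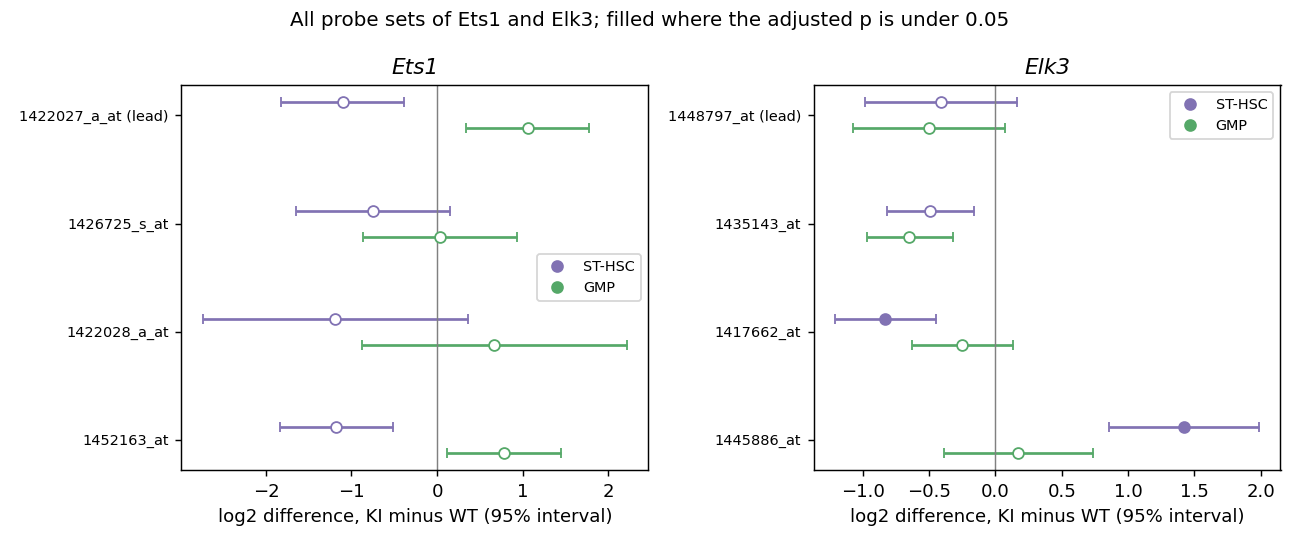
KI minus WT difference in log2 units of each probe set of Ets1 (left) and Elk3 (right), with the 95% interval from limma, for ST-HSC (purple) and GMP (green); filled points have an adjusted p under 0.05. The 4 Ets1 probe sets lie below 0 in ST-HSC and above 0 in GMP, of which 1452163_at reads signals under the olfactory receptor percentile in 3 of the 4 groups, while the 2 filled Elk3 points in ST-HSC lie on opposite sides of 0, at -0.83 and 1.42.

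Erg and Fli1 are close relatives that work beside Gata2, Runx1 and Tal1 in stem cells, and Erg is needed for stem cell maintenance. Erg read 10.54, 10.55 and 10.88 in KI ST-HSC, 10.76, 10.23 and 10.21 in WT ST-HSC, 9.19, 9.32 and 9.53 in KI GMP-like cells and 9.30, 8.64 and 9.43 in WT GMP. KI and WT arrays overlapped in both populations, and every GMP array lay below every ST-HSC array. The KI minus WT differences were 0.26 in ST-HSC and 0.22 in GMP, with limma adjusted p of 0.738 and 0.77. From ST-HSC to GMP, Erg was lower in WT by -1.27 (95% interval -1.78 to -0.76, adjusted p = 0.00645; -1.16 and 0.0112 after quantile normalization). In KI the difference was -1.31 (95% interval -1.82 to -0.80, adjusted p = 0.00617; -1.15 and 0.0128 after quantile normalization), a ratio of 0.404. The second Erg probe set gave -1.48 in WT and -1.28 in KI, with adjusted p of 0.00416 and 0.00939, and was called on both scales.

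Fli1 lies next to Ets1 in the GRCm38.p6 assembly, with 0 protein-coding genes between them, as Erg lies next to Ets2. The lead probe set of Fli1 was not called in any comparison. Its group means were 10.06 ± 0.171 in KI ST-HSC, 10.08 ± 0.0427 in WT ST-HSC, 9.96 ± 0.192 in KI GMP-like cells and 10.20 ± 0.00526 in WT GMP (SD, n = 3). The KI minus WT difference was -0.02 in ST-HSC (95% interval -0.32 to 0.28) and -0.24 in GMP (-0.54 to 0.06), with limma adjusted p of 0.972 and 0.475. The GMP minus ST-HSC difference was 0.12 in WT and -0.10 in KI, with adjusted p of 0.609 and 0.658. The second Fli1 probe set, 1433512_at, was called lower in KI GMP-like cells on the deposited scale alone (-0.58, adjusted p = 0.0488; 0.185 after quantile normalization).

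Ets2, a target of Ras and MAP kinase signaling that takes part in macrophage gene expression, had the widest spread in KI GMP-like cells, where its arrays read 7.93, 7.97 and 6.70. WT GMP read 8.06, 8.57 and 7.71, KI ST-HSC 7.77, 7.85 and 8.15, and WT ST-HSC 7.58, 8.51 and 8.0. The single array at 6.70, KI GMP replicate 3, lay apart from all others, and the KI minus WT differences were -0.11 in ST-HSC and -0.58 in GMP, with limma adjusted p of 0.948 and 0.541. Without that array the GMP difference was -0.16 (adjusted p = 0.92). The GMP minus ST-HSC differences of 0.08 in WT and -0.39 in KI had adjusted p of 0.908 and 0.518.

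Elf1, known for its part in T cell and endothelial gene expression and in the control of stem cell genes such as Tal1 and Lmo2, was lower in GMP of both genotypes on its lead probe set. It read 9.10, 9.17 and 9.35 in KI ST-HSC, 9.73, 9.38 and 9.40 in WT ST-HSC, 8.35, 8.14 and 8.34 in KI GMP-like cells and 8.78, 8.67 and 8.53 in WT GMP. All GMP arrays lay below all ST-HSC arrays, and within each population every KI array lay below every WT array. GMP minus ST-HSC was -0.84 in WT (95% interval -1.15 to -0.52, limma adjusted p = 0.00478; -0.70 and 0.013 after quantile normalization) and -0.93 in KI (-1.25 to -0.62, 0.00308; -0.73 and 0.012). In WT the call was lost without the WT arrays of high Xist, which leaves 1 array in each WT group (-0.70, adjusted p = 0.184). The KI minus WT differences were -0.29 in ST-HSC (95% interval -0.61 to 0.03, adjusted p = 0.436) and -0.38 in GMP (-0.70 to -0.07, 0.23), a ratio of 0.766 that did not pass the test. The second, dimmer Elf1 probe set gave KI minus WT differences of 0.56 and -0.15. Its GMP minus ST-HSC difference was -0.32 in WT (adjusted p = 0.487; -0.02 after quantile normalization) and -1.02 in KI (adjusted p = 0.0379; -0.70 and 0.145 after quantile normalization), so that the call of the lead was not repeated on both scales by this probe set.

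Promoter sequence was looked up in RefSeq for the assembly GRCm38.p6, which holds 250 bases before and 50 after each start site. It matched 7 of the 10 genes with 10 promoters; Spi1, Ets1 and Fli1 were not matched. A PU.1 type ETS site, AGGAAGT, and an AP-1 site, TGANTCA, were searched on both strands, since the study concerns PU.1 and the AP-1 member c-Jun. The ETS letters were found in 1 of the 10 promoters, that of Gabpa, and in 9.35% of 32851 promoters of all genes. The AP-1 letters were found in 1 of the 10, a promoter of Elf1, and in 7.81% of all. Both stretches are shown because they are the ones among these genes that hold the letters, which stand in capitals; each is written 5′ to 3′ on the plus strand, which is the strand of both genes, at chr16:84834997-84835033 for Gabpa and chr14:79515636-79515672 for Elf1.
Gabpa: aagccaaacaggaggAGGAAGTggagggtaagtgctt
Elf1: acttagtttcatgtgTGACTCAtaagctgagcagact
The Gabpa letters begin at -112 and the Elf1 letters at -23 relative to the start site. A match describes the sequence and says nothing of binding in these cells. The lead probe set of Elf1 was lower in GMP as given above, and that of Gabpa was not called in any comparison.

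Gabpa, the DNA-binding subunit of the GA-binding protein that serves many housekeeping and mitochondrial genes, had group means of 10.70 ± 0.099 in KI ST-HSC, 10.70 ± 0.0831 in WT ST-HSC, 10.22 ± 0.391 in KI GMP-like cells and 10.36 ± 0.179 in WT GMP (SD, n = 3). The KI minus WT difference was 0.00 in ST-HSC (95% interval -0.41 to 0.42, limma adjusted p = 0.996) and -0.14 in GMP (-0.55 to 0.28, 0.838). Its GMP minus ST-HSC differences were -0.34 in WT and -0.48 in KI, with adjusted p of 0.262 and 0.12. The second Gabpa probe set was called in KI on the deposited scale alone (-1.0, adjusted p = 0.0246; 0.051 after quantile normalization).

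Etv6, a repressor needed for stem cells in adult marrow, read 10.81, 10.75 and 10.84 in KI and 10.62, 10.29 and 10.50 in WT ST-HSC. In GMP it read 9.68, 10.41 and 9.51 in KI and 10.48, 9.94 and 10.56 in WT. The KI arrays lay above the WT arrays in ST-HSC without overlap, and the groups overlapped in GMP, with differences of 0.33 (limma adjusted p = 0.649) and -0.46 (adjusted p = 0.435). The test of the difference between populations gave -0.79 (95% interval -1.54 to -0.04, adjusted p = 0.604). Within KI, GMP minus ST-HSC was -0.94 on the deposited scale (adjusted p = 0.0302) and -0.78 after quantile normalization (adjusted p = 0.055), which misses the call on both scales, and the second Etv6 probe set gave 0.08.

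Spib, the closest relative of PU.1 and a factor of B cells and plasmacytoid dendritic cells, was dim throughout. Its group means were 4.06 ± 0.149 in KI ST-HSC, 4.39 ± 0.378 in WT ST-HSC, 3.74 ± 0.504 in KI GMP-like cells and 3.59 ± 0.0323 in WT GMP (SD, n = 3), and in both GMP groups its mean lay under the 95th percentile of the olfactory receptor probe sets. The KI minus WT differences were -0.33 (95% interval -0.89 to 0.22, limma adjusted p = 0.665) and 0.15 (-0.40 to 0.70, 0.876). RMA compresses differences at such signals, so that these intervals bound the array reading more than the RNA.

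From ST-HSC to GMP, 2 of the 10 genes were lower in WT on both scales, Erg and Elf1, and by limma none was higher (0 at an unadjusted p under 0.05); 5.33% of all probe sets were lower and 2.44% higher by that rule. On the deposited scale alone 2 of the 10 were called in WT, where 13.1% of all probe sets were, and 4 in KI, where 12.2% were. In KI the same 2 genes were lower on both scales, against 4.82% of all probe sets, and Ets1 was higher, against 2.04%. Ets1 rose by 1.63 from KI ST-HSC to KI GMP-like cells (95% interval 0.91 to 2.35, 3.09-fold, limma adjusted p = 0.0111; 1.98 and 0.006 after quantile normalization). In WT the same difference was -0.53 (95% interval -1.25 to 0.19, adjusted p = 0.315), and the contrast of the genotypes is the 2.16 given above, which did not pass the test. The KI call was lost when all 4 Ets1 probe sets were averaged (1.08, adjusted p = 0.0761).

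**Figure D4:**
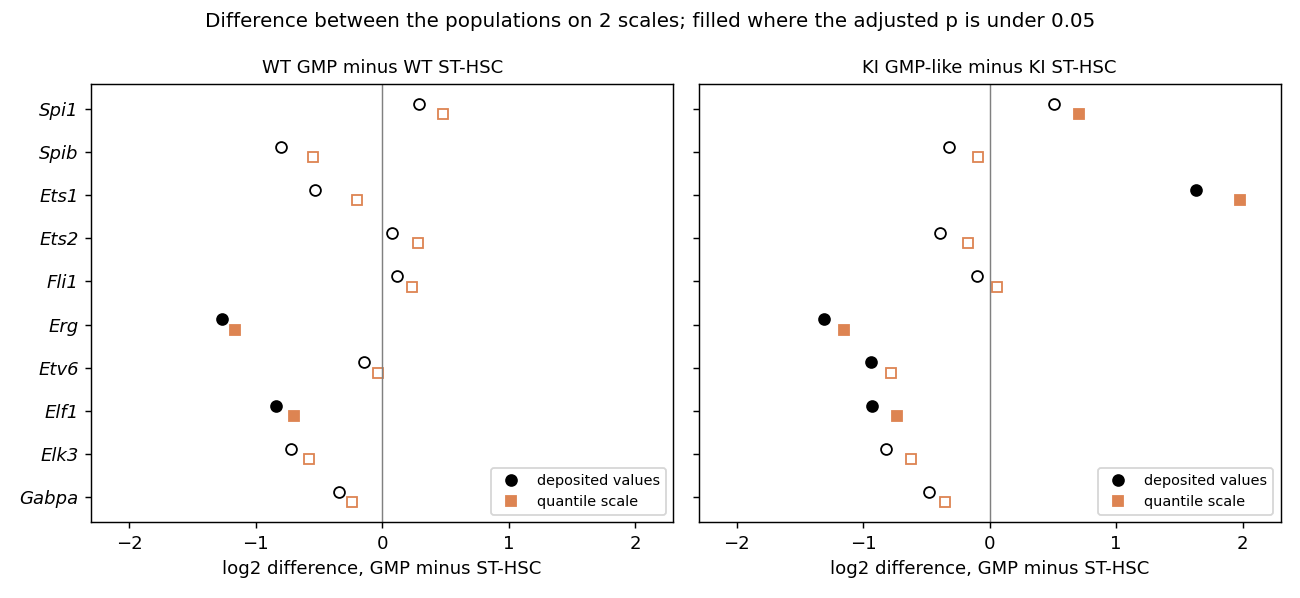
GMP minus ST-HSC difference in log2 units of the lead probe set of each ETS factor gene in WT (left) and KI (right), on the deposited scale (circles) and after quantile normalization over all 12 arrays (squares); filled symbols have an adjusted p under 0.05. Erg and Elf1 are filled on both scales in both panels, Ets1 on both scales in KI alone, and Etv6 and Spi1 on 1 scale in KI.

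Beside the lower Erg values in GMP, the 9 measured stem cell markers had a summed linear signal of 6620 to 8600 (KI) and 9580 to 10200 (WT) in ST-HSC against 2770 to 3040 (KI) and 3770 to 3840 (WT) in GMP. Megakaryocyte markers, from cells that also express Erg, had a sum over 5 measured genes of 967 to 1410 (KI) and 312 to 515 (WT) in ST-HSC and of 451 to 771 (KI) and 287 to 394 (WT) in GMP. Between KI and WT, 2 of these 5 were higher in KI ST-HSC and 1 in KI GMP-like cells, against 2.21% and 2.13% of all probe sets called. Their part in the Erg values was not tested.

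Among 16 further ETS family genes, 14 had a probe set by symbol, all but Etv1 and Fev, and 1 was called between KI and WT, in ST-HSC, where 2.21% of all probe sets were called. Etv4, a member of the PEA3 group that acts downstream of fibroblast growth factor signaling, read 6.16, 5.96 and 6.84 in KI ST-HSC and 4.53, 4.21 and 4.53 in WT ST-HSC. All KI arrays lay above all WT arrays, and Etv4 was higher in KI by 1.90, or 3.72-fold (95% interval 2.64 to 5.24, limma adjusted p = 0.00153). The call held in 19 of 20 alternatives with adjusted p from 0.00108 to 0.0301, and was not made by SAM. The filter on low values left this probe set out, so that the filter is not among the 20. Values of the other Etv4 probe set are not given here. In GMP Etv4 read 4.0, 4.28 and 4.05 in KI and 3.43, 3.26 and 3.72 in WT, and it was not called. All 3 WT GMP arrays lay under the olfactory receptor percentile. In KI, Etv4 fell by 2.21 from ST-HSC to GMP-like cells (limma adjusted p = 0.000407), and this held on both scales. KI GMP replicate 3, at 4.05, lay under the olfactory receptor percentile of its own array, 4.16. The size of 2.21 therefore rests on signals near that level. Elk4 was lower in WT GMP than in WT ST-HSC (-0.75, adjusted p = 0.0271) on both scales. This call was lost in 5 of 19 alternatives: with the array median subtracted (-0.44, adjusted p = 0.154), without WT ST-HSC replicate 1 or 2, without WT GMP replicate 2, and without the WT arrays of high Xist (-1.14, adjusted p = 0.0549). On the deposited scale alone there were calls for Elf4 in WT (-0.53), and Elk4 (-0.77) and Elf2 (-0.60) in KI, and for Etv4 in WT, for which no size is given because WT GMP lay under the olfactory receptor percentile. In all, 3 of the 14 were called in each genotype on the deposited scale, against the 13.1% and 12.2% given above.

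A list of 16 factors was taken as partners of PU.1 or regulators of its gene. Among them, the study does not name Gfi1, Ikzf1, Tcf7l2, Gabpb1 or Gabpb2 as partners. It mentions JunB and the Fos family as AP-1 members. Of these 16, 3 were called between KI and WT in ST-HSC and 1 in GMP, against 2.21% and 2.13% of all probe sets. Irf8, a partner of PU.1 on composite sites and a factor of monocytes and dendritic cells, read 4.55, 4.52 and 5.86 in KI and 11.13, 10.95 and 11.75 in WT ST-HSC, and was lower in KI (-6.30, limma adjusted p = 3.66e-05). In GMP it was lower in KI as well (-3.18, adjusted p = 0.00291), a call that was lost without the WT arrays of high Xist (-3.69, adjusted p = 0.0501) and not made by SAM. Gata2, a stem and mast cell factor that can oppose PU.1, was higher in KI ST-HSC (1.86, adjusted p = 0.0325), as was Cebpa, a factor of granulocyte commitment (1.21, adjusted p = 0.0305). Both calls were lost with the Xist level as a covariate (1.10 for Gata2 and 1.35 for Cebpa), without any single KI ST-HSC array or without WT ST-HSC replicate 3, with the Gata2 difference at 1.52 and the Cebpa difference at 0.92 in the last case. Leaving out WT ST-HSC replicate 1 or KI GMP replicate 3 also ended the call for Gata2, and leaving out WT ST-HSC replicate 2 ended the call for Cebpa. With only the 6 arrays of the comparison the adjusted p was 0.0522 for Gata2 and 0.134 for Cebpa, and SAM picked neither. Erythroid markers moved with Gata2 in ST-HSC: 3 of 5 measured were higher in KI, and their summed linear signal was 1090 to 1750 in KI against 160 to 571 in WT. Their part in the Gata2 and Etv4 values was not tested.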

How the data were processed

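RNA of sorted ST-HSC and GMP was amplified linearly from 10 ng, labelled and hybridised by the authors, 1 array a sample. The deposited values are log2 signals that the authors made by RMA in R-Bioconductor (version not given in the sources used here). RMA aligns distributions and compresses differences at low signal. Genes were named from the platform annotation: 34945 probe sets had 1 symbol, 932 several and 9160 none; 64 control probe sets were left out. Groups came from the sample titles and genotypes. limma 3.58.1 in R 4.3.3 was fitted to all 45037 probe sets with 4 group means over the 12 arrays (8 residual and 2.52 prior degrees of freedom). The fit was tested on simulated data. An exact permutation test of 3 against 3 arrays cannot go below 0.1, and no call rests on it. Named are the 10 genes, further ETS genes called in any comparison, the 5 genes most and least like Spi1, and up to 4 called PU.1 partners. The members and lists were chosen with earlier results of these data known. Alternatives were other scalings, a filter (log2 of at least 6 in 3 arrays), eBayes with trend, averaged probe sets, arrays left out, a replicate block, Xist and SAM. Arrays carry no read depth, and their number limits the precision.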

Additional observations from a re-analysis of the deposited data

Results flagged for a closer look

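Ets1 stood out because in ST-HSC every KI array read lower than every WT array, and in GMP every KI array read higher. The difference between the populations was 2.16 on the log2 scale, and it was tested as an interaction in limma over all probe sets, where it did not pass (adjusted p = 0.164). Over 20 alternatives its value ran from 1.69 to 2.51, with adjusted p from 0.0863 to 0.402.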

How the results depend on the processing

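Of 1035 values of the 10 genes under the alternatives none turned its direction while called, and 37 changed sign while called under neither setting. The number of the 10 genes called between KI and WT in ST-HSC went from 0 to 1, Ets1, with the Xist level as a covariate. In GMP it ranged from 0 to 1 when 1 array was left out. The number called for GMP minus ST-HSC in WT went from 2 to 4 with the probe sets of a gene averaged (Spib and Elk3 were added) and to 1 without the WT arrays of high Xist, where each WT group keeps 1 array that is assumed to vary like the other groups. In KI the averaging added Elk3 (-1.0, limma adjusted p = 0.00176) and Gabpa (-0.74, 0.015). It dropped Ets1 (adjusted p = 0.0761) and Etv6 (0.124). With 1 array left out the number called ranged from 2 to 3 in WT and from 3 to 5 in KI. With the replicate number as a block the counts of calls were 0, 0, 0, 2 and, in KI, 3 in place of 4, where Etv6 was lost (adjusted p = 0.0575). The numbers do not pair the arrays by the labels: deviations of same-numbered KI and WT arrays correlated between -0.0381 and 0.0742, with all 6 ST-HSC arrays best with their own number, against 0 of 6 in GMP. Between WT ST-HSC and WT GMP they correlated at 0.147, 0.164 and 0.0618, with 6 of 6 best with their own number, and Xist was high in replicates 1 and 3 of both, a hint of shared numbers that not every pair bears out at 0.1. The block also ended the lower call of the Elk3 probe set 1417662_at in ST-HSC (adjusted p = 0.0747). SAM was run for the KI to WT comparisons alone.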
